A study of Arabidopsis thaliana with 21 samples.

Results

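IAA20 (AT2G46990), IAA29 (AT4G32280), IAA30 (AT3G62100), IAA31 (AT3G17600), IAA32 (AT2G01200), IAA33 (AT5G57420) and IAA34 (AT1G15050) are the divergent members of the Aux/IAA family of Arabidopsis thaliana. They were picked by locus, and their estimated reads were summed over transcripts in each library. They make up 7 of the 27586 loci in the files and 7 of the 29 Aux/IAA genes. By level, 5 of the 7 genes were expressed (IAA20, IAA29, IAA30, IAA31 and IAA33), IAA32 was just below that level and IAA34 was near zero.

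Aux/IAA proteins repress auxin-responsive genes by binding ARF transcription factors and recruiting the corepressor TOPLESS. Auxin brings most of them together with the F-box receptors TIR1 and AFB through a short degron, which leads to their destruction, and many Aux/IAA genes are themselves induced by auxin, which closes a feedback loop. The divergent members are known for lacking all or part of that degron or other conserved domains, and several of their proteins are long-lived. In the root, IAA20, IAA30 and IAA31 are known for disturbing gravitropism and vascular patterning when overexpressed, IAA20 and IAA30 lie downstream of the ARF protein MONOPTEROS in the vascular cylinder, and IAA33 acts in the root tip together with ARF10 and ARF16.

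RNA was sequenced from 50 root tips of 1 to 2 mm per library, taken from 5-day-old plants that grew in a chamber. There were 21 libraries in 7 groups of 3, labelled as biological replicates, from 3 experiments. In the first, the wild type Col-0 received ethanol (mock), 10 nM of the natural auxin indole-3-acetic acid (IAA) or 10 µM of the auxin antagonist PEO-IAA for 20 min. In the second, Col-0 and the line HS::AXR3-1 were kept at 37 °C for 40 min and then allowed 80 min of recovery. In the third, Col-0 and the line XVE>>AXR3-1 were given 5 µM estradiol for 2 h. AXR3-1 is a stabilized form of IAA17, also called AXR3. HS::AXR3-1 makes it from a heat shock promoter, and XVE>>AXR3-1 makes it, fused to a red fluorescent protein, from an estradiol-inducible promoter (g1090::XVE). The sample labels spell the genotypes HS:AXR3-1 and XVE:AXR3-1-RFP, and the short names used here follow the design text, which names the tag mCherry. Both lines are in the Col-0 background, and each is represented by 1 line.

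Each library held between 17.45 and 23.88 M estimated reads. AXR3 itself, whose reads cannot be split between the transgene and the native gene, lay at 953 ± 226 CPM in XVE>>AXR3-1 against 156 ± 16.8 in its control (SD, n = 3, as for all mean ± SD values), and at 181, 298 and 861 CPM in the 3 HS::AXR3-1 libraries against 93.5 to 149 in heated Col-0. CPM is the read count scaled to counts per M reads with TMM. The library labelled HS::AXR3-1 replicate 1 went against its heat label: the small heat shock gene HSP18.2 lay there at 18 CPM, against 1961 and 4824 in the other HS::AXR3-1 libraries, 2464 to 3156 in heated Col-0 and 0.0509 to 1.43 in the unheated groups. The log2 differences of the tested divergent genes in that line are therefore given with and without it. Markers of the stele, the vascular cylinder of the root, summed to between 148 and 244 CPM, those of green tissue to between 1.46 and 8.96 CPM, and no marker was at 0 in any group.

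The 7 genes were chosen as those that lack or vary the degron or other domains. Their contrast with the rest of the family in the degron core follows from that choice and is a description only. The core is shown because 6 of the 7 genes do not carry it whole. The codons searched, in frame and in this order, were GGN, TGG, CCN and CCN, which encode glycine, tryptophan, proline and proline. All 22 other Aux/IAA genes carried it in every coding transcript of the RefSeq annotation (TAIR10.1), against 0.124% of all 27407 genes searched. Of the divergent genes, IAA29 carried it in transcripts 1 and 3 but not in transcript 2. IAA31 carried only the last 3 codons, and the other 5 carried neither. The matching codons are in capitals, followed by the next codons in lower case, for AXR3 (chr1:1136947-1136970, plus strand), IAA29 (chr4:15583951-15583974, plus strand) and IAA31 (chr3:6020782-6020805, minus strand), each within 1 coding exon.
AXR3: GGATGGCCACCGgtgagatcatac
IAA29: GGATGGCCACCAgtaaaaacatgt
IAA31: gatTGGCCACCGataaagtctaga

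The 7 genes lie on all 5 chromosomes. In TAIR10.1, IAA34 is at chr1:5181991-5183413 (minus strand), IAA32 at chr2:117969-120095 (plus), IAA20 at chr2:19307714-19309071 (plus), IAA31 at chr3:6019973-6021147 (minus), IAA30 at chr3:22995686-22996809 (plus), IAA29 at chr4:15583332-15584903 (plus) and IAA33 at chr5:23269914-23271092 (plus). The 300 bases before each gene start were searched on both strands for the auxin response elements TGTCTC (in 13% of 27443 such windows) and TGTCGG (4.91%), the G-box CACGTG (7.09%) and the heat shock element core GAANNTTC (11.5%). IAA20 and IAA30, closely related genes, were the only 2 with CACGTG, and both also held TGTCTC, with 44 and 43 bases between the starts of the motifs. They are shown because these windows match over a run of 18 bases that includes TGTCTC. The 150 bases before the start are given for IAA20 (chr2:19307564-19307713, plus strand) and IAA30 (chr3:22995536-22995685, plus strand), with both motifs in capitals.
IAA20: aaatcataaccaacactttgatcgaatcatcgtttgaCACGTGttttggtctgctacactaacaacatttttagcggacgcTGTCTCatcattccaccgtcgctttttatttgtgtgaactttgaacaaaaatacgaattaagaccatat
IAA30: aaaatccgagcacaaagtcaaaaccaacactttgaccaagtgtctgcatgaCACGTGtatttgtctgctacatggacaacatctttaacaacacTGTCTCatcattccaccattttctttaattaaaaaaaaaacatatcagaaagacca
Of the other genes, TGTCTC was matched in IAA34 at 114 bases before the start and, on the other strand, in IAA32 at 131 bases, and GAANNTTC was matched in IAA31 at 289 and 131 bases. These letters were not found in the windows of IAA29 and IAA33. The windows of IAA32 and IAA34 overlap the neighbouring genes AT2G01190 and AT1G15060.

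All 7 genes sat in the lower part of the family. On the per-length scale, mean TPM over the 21 libraries was 5.97 for IAA31, 4.09 for IAA33, 3.12 for IAA30, 1.7 for IAA20, 0.971 for IAA29, 0.502 for IAA34 and 0.448 for IAA32. That places IAA31 at rank 18 and IAA32 at rank 28 of 29, with IAA15 (0.00676 TPM) last and AXR3 (259 TPM, transgene reads included) and IAA9 (216 TPM) first. Together the 7 genes gave 1.36 ± 0.399% of the family's summed TPM (n = 21), from 0.67% to 2.25% per library. The group means ran from 0.917% in XVE>>AXR3-1, where AXR3 adds to the family total, to 1.84% in heated Col-0. AXR3, transgene reads included, gave 802 of 1436 TPM in XVE>>AXR3-1 and 110 of 1132 TPM in heated Col-0. These shares therefore do not rank the groups apart from the transgene, whose reads also enter the mean over 21 libraries.

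**Figure D1:**
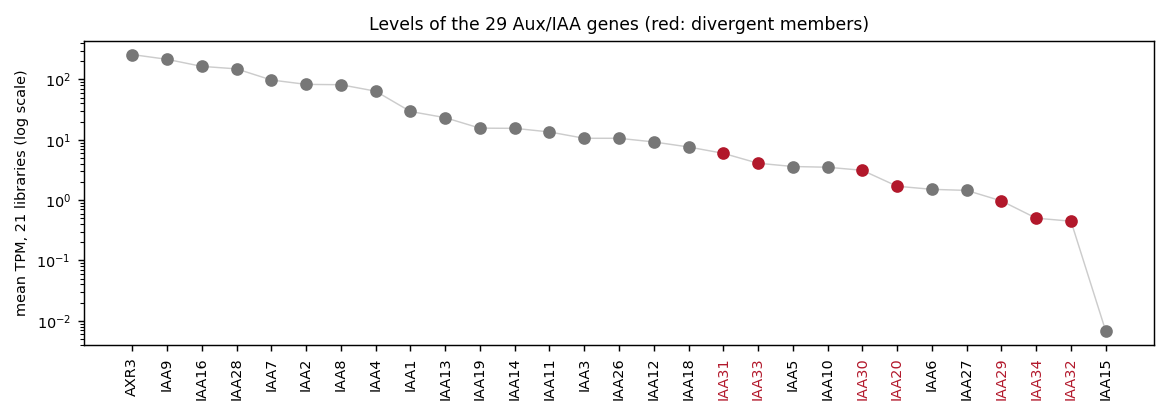
Mean TPM over 21 libraries (vertical, log scale) of the 29 Aux/IAA genes in descending order, with the 7 divergent genes in red. The divergent genes run from rank 18 (IAA31) to rank 28 (IAA32), and all lie under 6 TPM.

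A gene was called expressed where its mean reached 1 CPM in at least 1 group, and near zero where it stayed under 0.5 CPM in all 7. IAA34 had between 1 and 11 reads per library and group means from 0.103 ± 0.0524 CPM in mock to 0.358 ± 0.143 after IAA, so it was near zero, and it was 1 of the genes left out of the tests for low counts. IAA32 lay in between, from 0.494 ± 0.235 CPM in heated Col-0 to 0.898 ± 0.259 in estradiol-treated Col-0, with 3 to 35 reads per library. Without the library labelled HS::AXR3-1 replicate 1 (1.62 CPM), HS::AXR3-1 lay below that range, at 0.297 and 0.14 CPM. With so few reads, a counting interval is wide: the 6 reads of IAA34 in the 3 mock libraries have an exact 95% Poisson interval of 2.2 to 13.1 reads. Such Poisson intervals, and the upper limit given for a count of 0, cover counting error only. The 95% intervals of log2 differences rest on an SE worked out from the log2 difference and the F statistic of edgeR's test. This SE includes the spread among libraries and is approximate.

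**Figure D2:**
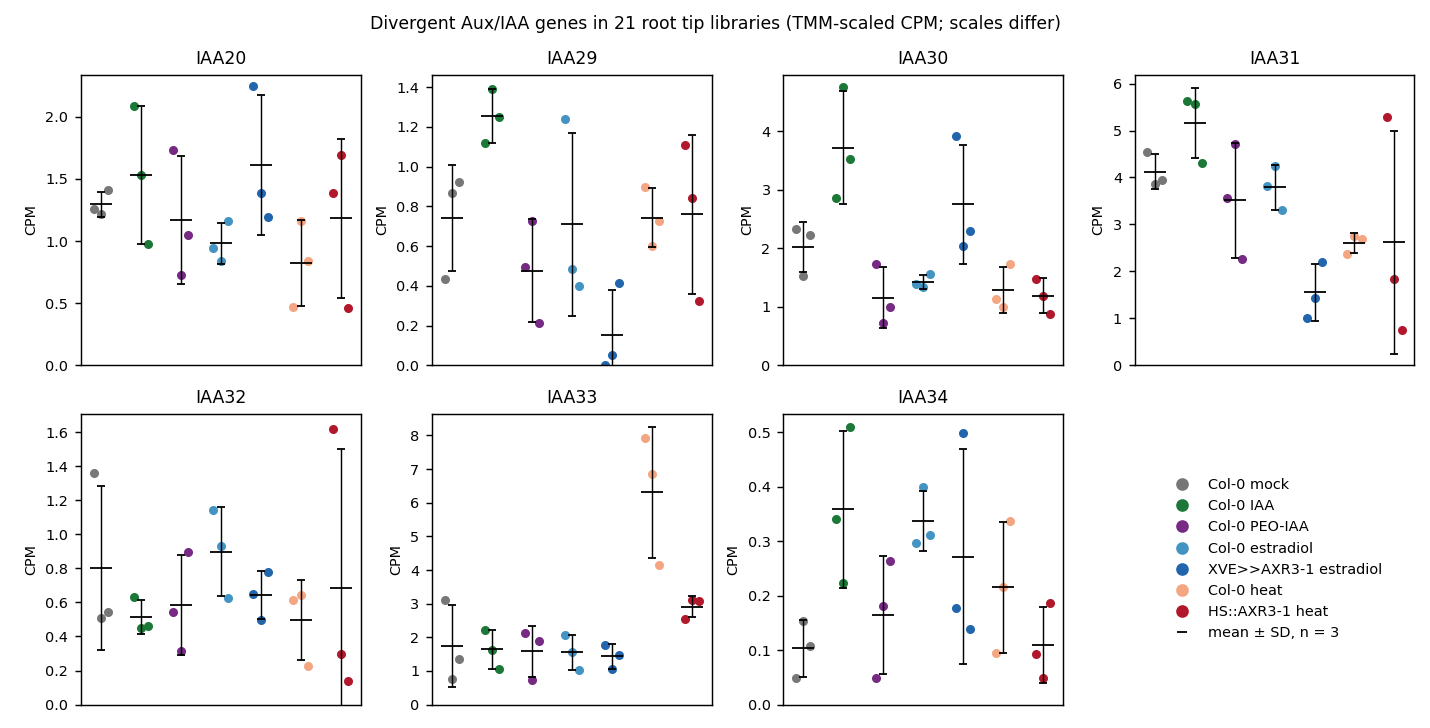
CPM of each divergent gene (vertical, a scale of its own per gene) in every library, coloured by group, with mean and SD bars (n = 3). IAA33 stands highest in the 3 heated Col-0 libraries (4.14 to 7.93 CPM), IAA30 highest in the IAA libraries (2.86 to 4.76), and IAA34 stays at or below 0.51 CPM.

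IAA30 was the 1 divergent gene called between auxin and its antagonist. It was 3.22-fold higher after IAA than after PEO-IAA, and its mean in mock lay between. The IAA libraries had 59, 106 and 76 reads (2.86, 4.76 and 3.52 CPM), the mock libraries 48, 30 and 41 reads (2.32, 1.53 and 2.22 CPM), and the PEO-IAA libraries 35, 16 and 19 reads (1.73, 0.725 and 1 CPM). All 3 IAA libraries were above all mock and all PEO-IAA libraries, while mock and PEO-IAA overlapped. The log2 difference between IAA and PEO-IAA was 1.69 (SE 0.36, 95% interval 0.92 to 2.45), with an adjusted p of 0.0364 in edgeR's quasi-likelihood test with Benjamini-Hochberg adjustment over 19809 genes. Against mock alone, neither side passed: IAA gave 0.87 (SE 0.35, unadjusted p = 0.023, adjusted p = 1) and PEO-IAA gave -0.81 (SE 0.36, unadjusted p = 0.0384, adjusted p = 1), both from the same edgeR fit. In bulk tissue, more RNA per cell and more cells of a type that expresses the gene cannot be told apart. No marker gene of the cell type lists passed the test in any of these 3 comparisons. Yet the root cap sum after IAA (40.4 to 43.8 CPM) lay below mock (46.3 to 53.9) without overlap, with all 4 genes lower. It overlapped PEO-IAA (43.1 to 57.4 CPM), and the sums of the other cell type lists after IAA overlapped mock. The part of cell types in the value of IAA30 was not tested. The call for IAA30 ended in a fit of its own experiment alone, with the same log2 difference of 1.69 and an adjusted p of 0.131. It also ended without PEO-IAA replicate 3, where the difference was 1.60 with an adjusted p of 0.228, and without 8 other libraries left out one at a time.

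The other 5 tested divergent genes were not called in the chemical treatments. IAA30 was thus the 1 gene of 6 called between IAA and PEO-IAA, where 0.631% of all genes tested were called. None of the 6 was called for IAA against mock (0.167% of all genes) or PEO-IAA against mock (0.0353%), where 1 each, IAA30, had an unadjusted p under 0.05. DESeq2, an alternative test, called IAA30 between IAA and PEO-IAA as well and none of the 7 genes in the other 2 comparisons.

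IAA29, known from shoots as a target of the light-regulated PIF factors, had its highest levels after IAA: 1.12, 1.39 and 1.25 CPM, against 0.436, 0.866 and 0.92 in mock and 0.495, 0.725 and 0.211 after PEO-IAA. The IAA libraries did not overlap either group, yet they held only 23 to 31 reads each. The log2 difference was 0.76 against mock (SE 0.68, 95% interval -0.67 to 2.18) and 1.37 against PEO-IAA (SE 0.69, interval -0.09 to 2.84), neither called, with adjusted p of 1 in edgeR. IAA29 and IAA30 were thus the 2 of 6 tested genes whose IAA libraries did not overlap mock, where 7.27% of all genes did not overlap, and also the 2 whose IAA and PEO-IAA libraries did not overlap, where 8.96% did not. PEO-IAA and mock overlapped for all 6 genes, beside 5.05% of all genes that did not overlap.

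IAA31, the highest of the 7 genes, had 5.63, 5.56 and 4.31 CPM after IAA, 4.55, 3.87 and 3.95 in mock, and 3.56, 4.71 and 2.27 after PEO-IAA. These 3 groups overlapped, with a log2 difference of 0.55 between IAA and PEO-IAA (SE 0.45, 95% interval -0.40 to 1.51). Within each of the 3 replicate numbers the IAA library was above both its mock and its PEO-IAA library, and a fit blocked by replicate gave 0.58 (edgeR adjusted p = 0.804). IAA20, which shares the run of 18 bases before its start with IAA30, lay at 2.09, 1.53 and 0.973 CPM after IAA, 1.26, 1.22 and 1.41 in mock and 1.73, 0.725 and 1.05 after PEO-IAA. Its groups overlapped as well, with a log2 difference of 0.38 between IAA and PEO-IAA (SE 0.46, interval -0.59 to 1.36). The intervals of IAA20 and IAA31 hold rises of up to 1.36 and 1.51 on the log2 scale, so the data do not show that these genes did not respond. IAA32 and IAA33 gave log2 differences of -0.18 and 0.05 in the same comparison.

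The canonical Aux/IAA genes, 20 of 21 tested, were set beside the divergent ones. Between IAA and PEO-IAA, 8 of the 20 were called higher and none lower, with a median log2 difference of 0.96, against 0.47 over the 6 divergent genes and -0.00 over all genes tested. The called genes with the smallest p were IAA2 (3.18, from 24.4 CPM after PEO-IAA to 221 after IAA), IAA1 (4.78, from 2.98 to 82.5 CPM) and IAA4 (1.65, from 27 to 84.9 CPM). For IAA against mock, 4 canonical genes were called higher, with IAA1 (1.79), IAA2 (1.03) and IAA11 (1.22) first, and the list's median was 0.71 against 0.28 over the divergent genes. For PEO-IAA against mock, 2 were called lower, IAA2 (-2.15) and IAA1 (-3.00), and the medians were -0.46 and -0.35. The called divergent gene, IAA30, lay at 3.71 CPM after IAA.

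**Figure D3:**
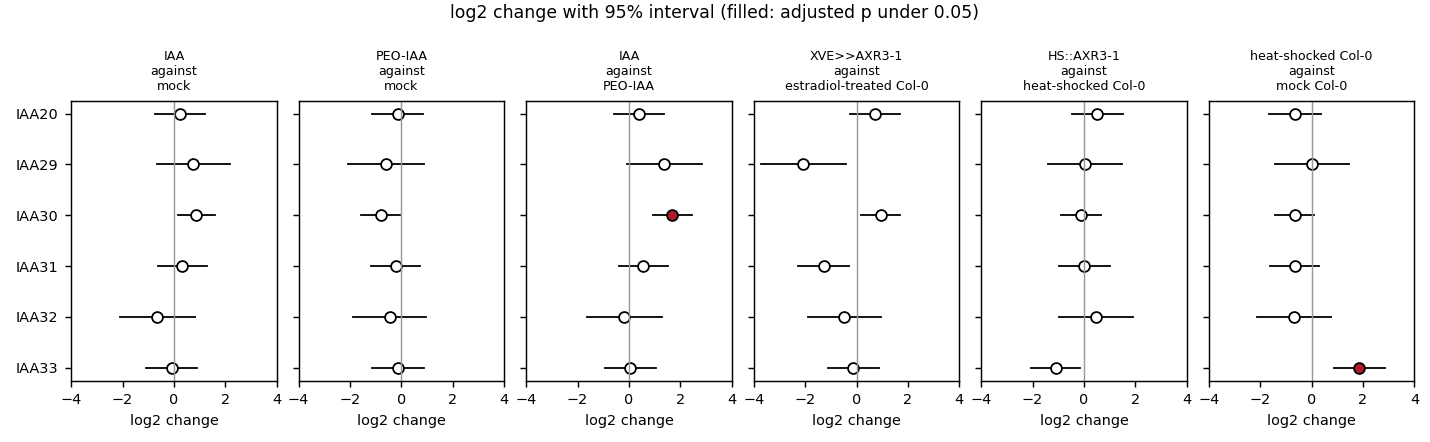
Log2 change (horizontal) with its 95% interval for the 6 tested divergent genes in 6 comparisons, with filled points where the adjusted p was under 0.05. The filled points are IAA30 for IAA against PEO-IAA (1.69) and IAA33 for heated Col-0 against mock (1.85).

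Stabilized AXR3-1 induced by estradiol went with lower values of IAA31 and IAA29 and higher values of IAA30 and IAA20, none of which passed the test. IAA31 lay at 1.01, 1.44 and 2.21 CPM in XVE>>AXR3-1 and at 3.81, 4.25 and 3.3 in estradiol-treated Col-0, without overlap. Its log2 difference was -1.28 (SE 0.47, 95% interval -2.27 to -0.28, unadjusted p = 0.0149, adjusted p = 0.235 in edgeR). It passed only without the library labelled HS::AXR3-1 replicate 1, which takes no side in this comparison but enters the shared estimate of spread (-1.27, edgeR adjusted p = 0.0426).

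IAA29 had 0, 1 and 9 reads in the XVE>>AXR3-1 libraries and 25, 11 and 9 in the control. A count of 0 in replicate 1 allows up to 0.178 CPM. Replicate 3, at 0.414 CPM, overlapped the control range of 0.401 to 1.24. The log2 difference was -2.07 (SE 0.78, unadjusted p = 0.0168, adjusted p = 0.254 in edgeR), and without XVE>>AXR3-1 replicate 3 it was -4.44 with an adjusted p of 0.0197.

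IAA30 lay at 3.91, 2.04 and 2.3 CPM in XVE>>AXR3-1, above all 3 control libraries at 1.39, 1.33 and 1.56, with a log2 difference of 0.94 (SE 0.36, unadjusted p = 0.017, adjusted p = 0.256 in edgeR). IAA20 lay at 2.25, 1.39 and 1.19 CPM against 0.941, 0.841 and 1.16, again without overlap, with a difference of 0.71 (SE 0.47, adjusted p = 0.861). The groups thus did not overlap for 3 of the 6 tested genes, IAA20, IAA30 and IAA31, beside 14.9% of all genes. IAA32 (-0.47) and IAA33 (-0.12) overlapped. None of the 6 was called, against 2.81% of all genes tested, and 3 had an unadjusted p under 0.05. In DESeq2 none of the 6 was called either.

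In the same comparison 12 of the 20 tested canonical Aux/IAA genes were called lower and none higher, with a median of -1.13, against -0.30 over the 6 divergent genes and -0.01 over all genes. IAA2 (-1.83), IAA1 (-2.44) and IAA16 (-2.43) had the smallest p. All 3 root hair markers were called lower too, and their sum ran from 34.5 to 85.7 CPM in the line against 130 to 161 in the control, without overlap. The sums of non-hair epidermis (47.1 to 54 against 60.1 to 78 CPM) and green tissue (4.74 to 8.96 against 1.54 to 3.39 CPM) did not overlap either. No gene of these further lists was called. Of 4 root cap markers, BRN1 was called higher (18.6 against 11.1 CPM) and BRN2 lower (4.65 against 10 CPM), and the sum overlapped, at 38.9 to 46.6 against 43 to 47.3 CPM. The part of these cell types in the values of the divergent genes was not tested.

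In HS::AXR3-1 none of the 6 genes was called against heated Col-0, where 0.0252% of all genes were, and AXR3 itself missed the threshold (1.80, SE 0.38, adjusted p = 0.199 in edgeR). Without the library labelled HS::AXR3-1 replicate 1, AXR3 was called (2.17, edgeR adjusted p = 0.0132), 9 genes in all were called higher and 11 lower, in place of 5 and 0, and still none of the 6. IAA33 came nearest, at 2.55, 3.12 and 3.07 CPM in the line against 7.93, 6.84 and 4.14 in heated Col-0, with no overlap. With all libraries kept, IAA33 was the 1 of 6 genes to show none (6.22% of all genes). Its log2 difference was -1.11 (SE 0.46, unadjusted p = 0.0259, adjusted p = 1 in edgeR), and -1.03 with an adjusted p of 1 without the library labelled HS::AXR3-1 replicate 1. IAA33 was also the 1 gene of 6 with an unadjusted p under 0.05, and DESeq2 called none of the 6. With all libraries kept, 2 marker sums did not overlap between the line and heated Col-0. They were the root hair sum (92.4 to 130 against 162 to 234 CPM) and the endodermis sum (253 to 327 against 217 to 230 CPM). No gene of these lists was called, and the part of these cell types in the value of IAA33 was not tested.

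For IAA31 and IAA32 the library labelled HS::AXR3-1 replicate 1 decided the value. IAA31 lay at 5.28 CPM in it and at 1.83 and 0.744 in the other HS::AXR3-1 libraries, against 2.36 to 2.75 in heated Col-0. Without that library, IAA31 did not overlap heated Col-0 either, but fewer libraries separate more easily. The share of all genes that do so was not counted for this reduced set. The log2 difference of IAA31 was 0.01 with the library and -1.02 without it (adjusted p = 0.795 in edgeR). IAA32 lay at 1.62 CPM in it and at 0.297 and 0.14 in the others, and its difference went from 0.46 to -1.18, with an adjusted p of 1 both times. For IAA20 the difference was 0.51 with the library and 0.37 without, for IAA30 -0.11 and -0.31, and for IAA29 0.03 and -0.35.

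The difference between the effects of the 2 lines was called for none of the 6 genes, beside 0.0252% of all genes. IAA29 (2.11, SE 1.04, unadjusted p 0.0581), IAA30 (-1.05, SE 0.51, unadjusted p 0.0545) and IAA31 (1.29, SE 0.66, unadjusted p 0.067) had the smallest unadjusted p in edgeR, and their adjusted p was 1. No gene of the 6 had an unadjusted p under 0.05, and DESeq2 called none. Without the library labelled HS::AXR3-1 replicate 1 the differences were 1.72 for IAA29, -1.25 for IAA30 and 0.25 for IAA31. For IAA32 the difference changed sign without it, from 0.93 (SE 0.96) to -0.72, while IAA33 (-0.92 without it) and IAA20 (-0.20 with it, -0.35 without) kept their sign, all with adjusted p of 1 in edgeR. Of the canonical genes, 0 of 20 were called in HS::AXR3-1 (median -0.25, and -0.35 without that library) and 0 of 20 for the difference (median 0.70, and 0.52 without it), both also with 0 called without it.

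IAA33 was highest in heated Col-0. It had 168, 159 and 74 reads there (7.93, 6.84 and 4.14 CPM) and 64, 15 and 25 in mock (3.1, 0.764 and 1.35 CPM), and estradiol-treated Col-0 stood at 2.08, 1.55 and 1.03 CPM. Every heated Col-0 library was above every library of the other 6 groups. The level was 3.61-fold that of mock (log2 1.85, SE 0.47, 95% interval 0.86 to 2.85, edgeR adjusted p = 0.0228) and 4.06-fold that of estradiol-treated Col-0 (log2 2.02, SE 0.47, interval 1.02 to 3.02, edgeR adjusted p = 0.0429). These groups come from different experiments, so heat and experiment cannot be told apart.

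IAA33 was the 1 gene of 6 called in either comparison. Beside it, 7.60% of all genes were called against mock and 1.54% against estradiol-treated Col-0. Groups did not overlap for 3 of the 6 genes against mock (27.9% of all genes), with IAA20 (-0.65, SE 0.47) and IAA31 (-0.66, SE 0.46) lower but not called, and for 2 of 6 against estradiol-treated Col-0 (23.0%), IAA31 and IAA33. The other genes gave -0.66 (IAA30), -0.68 (IAA32) and 0.01 (IAA29) against mock. Against estradiol-treated Col-0 the values were -0.54 (IAA31), -0.84 (IAA32), -0.25 (IAA20), -0.15 (IAA30) and 0.07 (IAA29). IAA34, tested without the filter, gave 1.01 and -0.65, not called. Between the 2 unheated Col-0 groups, none of the 6 was called, against 1.00% of all genes, and IAA20 alone did not overlap (1 of 6, beside 14.0%). Estradiol-treated Col-0 minus mock was -0.40 for IAA20, -0.50 for IAA30, -0.17 for IAA33, -0.12 for IAA31, -0.07 for IAA29 and 0.15 for IAA32 on the log2 scale. None of the 6 had an unadjusted p under 0.05 there, and DESeq2 called none.

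Heated Col-0 also differed in marker sums. The heat shock sum ran from 2523 to 3221 CPM against 8.2 to 12.7 in mock, with HSP18.2 and HSFA2 called of 3. The cell division sum ran from 32.9 to 59.6 CPM against 70.2 to 77, with neither of its genes called. The stele sum ran from 222 to 244 CPM against 154 to 203, with AHK4 called of 5 (0.81). The mean sum was 231 against 178 CPM, and AHK4 alone lay at 117 against 66.8 CPM. Of the 5 stele genes, 3 were higher and 2 lower. The stem cell niche sum overlapped, at 31.5 to 49.1 against 30.4 to 46.6 CPM, and so did the root cap sum, at 49.4 to 61.9 against 46.3 to 53.9 CPM. Against estradiol-treated Col-0, the root cap sum (43 to 47.3 CPM there) did not overlap, with BRN1 called higher of 4 genes (0.76). Nor did the root hair sum (162 to 234 against 130 to 161 CPM), the stele sum (148 to 203 in the control) or the endodermis sum (217 to 230 against 281 to 301 CPM), with none of their genes called. AHK4 lay at 117 against 71.6 CPM in that comparison, and 3 stele genes were higher and 2 lower. The cell division sum overlapped (53.1 to 63.2 CPM in the control). The part of these cell types in the value of IAA33 was not tested.

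Among the HS::AXR3-1 libraries, IAA33 lay at 2.55 CPM in the library with 18 CPM of HSP18.2, and at 3.12 and 3.07 CPM in those with 1961 and 4824. The call against mock ended when the 2 groups were fitted alone (adjusted p = 0.0744) and without mock replicates 2 or 3 or heated Col-0 replicates 1 or 2 (1.47 to 1.79, adjusted p = 0.0617 to 0.106). The call against estradiol-treated Col-0 ended without any 1 of 12 libraries, with adjusted p from 0.0505 to 0.158 and a log2 difference of at least 1.81.

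**Figure D4:**
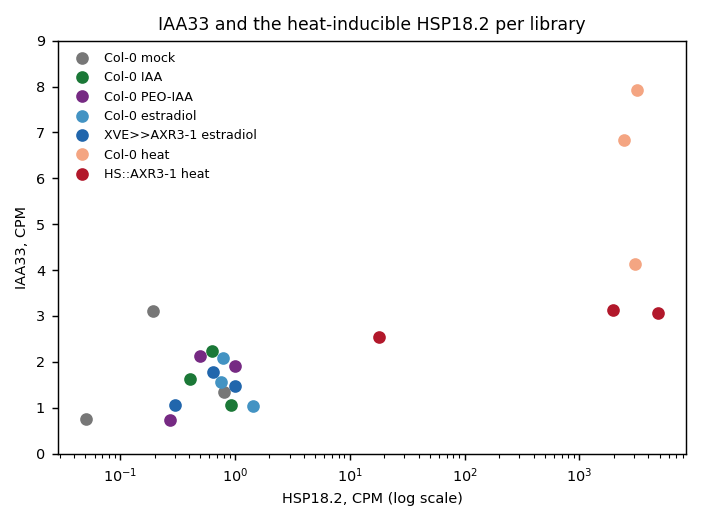
IAA33 (vertical, CPM) against the heat-inducible HSP18.2 (horizontal, CPM, log scale), 1 point per library, coloured by group. The 3 heated Col-0 libraries lie at 4.14 CPM of IAA33 or more, and the 3 HS::AXR3-1 libraries between 2.55 and 3.12 CPM, including the 1 with 18 CPM of HSP18.2.

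In the order of the group means, few neighbours were apart beyond their range. IAA29 after IAA (1.25 ± 0.137 CPM) did not overlap the next group, HS::AXR3-1 (0.76 ± 0.4). IAA33 in heated Col-0 (6.3 ± 1.95) did not overlap HS::AXR3-1 (2.91 ± 0.318), which overlapped mock (1.74 ± 1.21) and was followed by IAA (1.64 ± 0.584), PEO-IAA (1.58 ± 0.752), estradiol-treated Col-0 (1.55 ± 0.527) and XVE>>AXR3-1 (1.43 ± 0.368). With all libraries kept, IAA31 in heated Col-0 (2.6 ± 0.211) did not overlap XVE>>AXR3-1 (1.55 ± 0.607), the lowest group. All other neighbours overlapped in CPM. In TPM, neighbours also apart were mock and estradiol-treated Col-0 for IAA30, estradiol-treated and heated Col-0 for IAA31, and HS::AXR3-1 and IAA for IAA33. These pairs, and those of IAA29 and IAA31 in CPM, come from different experiments, so treatment or line and experiment cannot be told apart. No share of all genes was counted for the IAA29 and IAA31 pairs in CPM. The HS::AXR3-1 means, here and in the orders that follow, include the library labelled HS::AXR3-1 replicate 1. Without it, that line lay at 1.83 and 0.744 CPM of IAA31, below heated Col-0 (2.36 to 2.75) and overlapping XVE>>AXR3-1 (1.01 to 2.21).

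For IAA30 the order was IAA (3.71 ± 0.96), XVE>>AXR3-1 (2.75 ± 1.01), mock (2.02 ± 0.432), estradiol-treated Col-0 (1.43 ± 0.121), heated Col-0 (1.29 ± 0.395), HS::AXR3-1 (1.19 ± 0.299) and PEO-IAA (1.15 ± 0.52). For IAA31 it was IAA (5.17 ± 0.745), mock (4.12 ± 0.371), estradiol-treated Col-0 (3.79 ± 0.476), PEO-IAA (3.51 ± 1.22), HS::AXR3-1 (2.62 ± 2.37), heated Col-0 and XVE>>AXR3-1. IAA20 ran from 0.824 ± 0.345 CPM in heated Col-0 to 1.61 ± 0.561 in XVE>>AXR3-1, with all neighbours overlapping. IAA29 was lowest in XVE>>AXR3-1 (0.154 ± 0.226 CPM). On the TPM scale the highest group was the same for 6 of the 7 genes, and for IAA20 it was IAA (2.2 TPM) in place of XVE>>AXR3-1 (2.18 TPM).

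IAA32 and IAA34, known from the apical hook, where the kinase TMK1 acts on their proteins, were the weakest of the 7. IAA32 had 28, 10 and 10 reads in mock and 13, 10 and 10 after IAA, and all its groups overlapped with all libraries kept. Without the library labelled HS::AXR3-1 replicate 1, HS::AXR3-1 (0.297 and 0.14 CPM) overlapped its own control, heated Col-0 (0.224 to 0.645). The line then lay below mock (0.509 to 1.36) and the other unheated groups, whose lowest library had 0.317 CPM, after PEO-IAA. Those groups come from other experiments, and the share of all genes was not counted for this reduced set. IAA34 had 1, 3 and 2 reads in mock, 7, 5 and 11 after IAA, 1, 4 and 5 after PEO-IAA and 6, 9 and 7 in estradiol-treated Col-0. Without the filter on low counts, its log2 difference was 1.74 for IAA against mock (SE 0.74, unadjusted p = 0.03, adjusted p = 1 in edgeR) and 1.65 for estradiol-treated Col-0 against mock (SE 0.74, unadjusted p = 0.0385, adjusted p = 0.664). IAA34 was not called in any of the 9 comparisons.

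At the level of transcripts, IAA30 transcript 2 was listed at 0 TPM in all 3 PEO-IAA libraries, at 0 to 0.237 in mock and at 0.965 to 2.88 after IAA. Transcript 1 had 4.47 ± 1.34 TPM after IAA, 2.91 ± 0.402 in mock and 1.87 ± 0.76 after PEO-IAA, and its libraries ran from 3.70 to 6.02, 2.68 to 3.38 and 1.29 to 2.73. For both transcripts the IAA libraries lay above those of mock and PEO-IAA. In the other experiments, IAA30 transcript 2 reached 2.12 TPM in estradiol-treated Col-0 (mean 0.799), within the range after IAA. It reached 0.832 TPM in XVE>>AXR3-1, 0.689 in heated Col-0 and 0.529 in HS::AXR3-1. IAA29 transcript 2, which lacks the degron codons, had the highest mean after IAA (0.335 ± 0.328 TPM) and was listed at 0 in PEO-IAA and HS::AXR3-1, and transcript 3 was listed at 0 in XVE>>AXR3-1. These are Salmon's divisions of few reads among overlapping transcripts, and they were not tested.

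**Figure D5:**
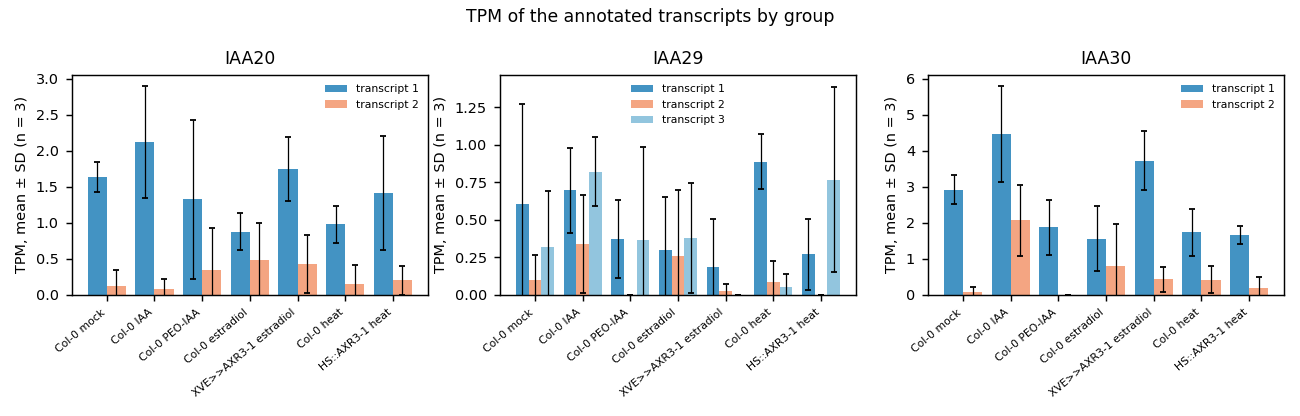
TPM (mean and SD, n = 3) of the annotated transcripts of IAA20, IAA29 and IAA30 in the 7 groups. IAA30 transcript 2 reaches 2.07 ± 0.989 TPM after IAA and is listed at 0 after PEO-IAA.

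Other genes around the divergent Aux/IAA proteins were described from lists. Of 10 MONOPTEROS and vascular target genes 9 were tested, and none was called in any of the 9 comparisons, with medians from -0.29 (XVE>>AXR3-1) to 0.23 (IAA against PEO-IAA). Of 6 auxin receptor genes, AFB1 alone was called, in XVE>>AXR3-1 (-0.57, edgeR adjusted p = 0.03). Of 10 reported partners and regulators 8 were tested. ARF19, an activating ARF, was called for IAA against mock (1.09) and against PEO-IAA (1.74). ARF10 and ARF16, the root cap ARFs that IAA33 acts with, were called lower in XVE>>AXR3-1 (-1.16 and -1.41, edgeR adjusted p = 8.45e-04 for both), where IAA33 itself gave -0.12. ARF16 was called higher in heated Col-0 than in mock (0.79, from 30.1 to 51.9 CPM, edgeR adjusted p = 0.0215), as IAA33 was. Against estradiol-treated Col-0, IAA33 was called and none of the 8 tested partners was. Heat and experiment cannot be told apart in either comparison.

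The tested genes most like each divergent gene with a mean of at least 1 CPM were taken by Pearson's r of log2 CPM over the 21 libraries, which share library and depth effects, and are a description only. For IAA33 they were AT2G43720 (0.89), CPN10, a chaperonin gene (0.89), and ECR1 (0.88). For IAA31 they were AT2G43480, AT2G47530 and AT3G20557 (0.90 each). For IAA30 they were NUDT7 (0.80), CBP60G (0.78) and AT5G60350 (0.77), and for IAA20 AT1G17200 (0.84), AT5G03885 (0.81) and AT1G06800 (0.80).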

How the data were processed

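The authors deposited expected counts (estimated reads) and TPM per transcript, made with Salmon 1.3.0 on TAIR10, per the submitters' processing notes. Lengths stand beside them per the file headers, and the strand option is not given in the sources used here. The authors' deposited TPM was summed per locus and used only for levels between genes and transcripts. The deposited expected counts were added up by locus, rounded and scaled by TMM. After edgeR's default filter on low counts 19809 genes were left, and 1 edgeR 4.0.16 fit (R 4.3.3) with a term for each of the 7 groups held all 21 libraries. A gene was called at a Benjamini-Hochberg adjusted p under 0.05. The p-values set each difference against the spread among these libraries only, estimated over all 7 groups with information shared across genes. The code was tested on simulated data. Alternatives are given at the end; DESeq2 1.42.0 was 1 of them.

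Named genes were all 7, AXR3, up to 3 called genes per list by smallest p, and the 3 most alike genes. The members and lists were chosen with earlier results of these data known. Sequences come from the RefSeq genome TAIR10.1; of 48071 transcripts matched by name, 99.6% had the same length as in the files, among them all 13 of the 7 genes. Replicate numbers pair libraries in the chemical and estradiol experiments (r of deviations 0.52 to 0.78 over 9 pairs and 0.49 to 0.70 over 3), and not in the heat experiment (0.09 to 0.45).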

Additional observations from a re-analysis of the deposited data

How the results depend on the processing

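Over 54 values (6 genes in 9 comparisons) no called value changed sign. Under the settings that kept all replicates 302 values kept their call and 3 lost it; leaving out 1 library at a time kept 1101, lost 25, gained 2 and moved 6 uncalled values. The number of the 7 genes called for IAA against PEO-IAA went from 1 to 0 in its own experiment alone, that for heated Col-0 against mock from 1 to 0 with both groups fitted alone, and that for heated against estradiol-treated Col-0 from 1 to 0 with a length offset (IAA33, 1.98, adjusted p = 0.0564 in edgeR). With 1 library left out, these counts and that for XVE>>AXR3-1 ran from 0 to 1. IAA30 between IAA and PEO-IAA ran from 1.44 to 2.10, and IAA33 between heated Col-0 and mock from 1.47 to 2.57. Without mock replicate 1, which had 3.1 CPM of IAA33, that gene gave 0.63 for IAA, 0.58 for PEO-IAA and 0.55 for estradiol-treated Col-0 against mock, none called. The cause of these shifts was not tested. With the replicate block, IAA30 between IAA and PEO-IAA was 1.74 (adjusted p = 0.0415 in edgeR); the block changed no call among the 7 genes and was not run between experiments. By another threshold for near zero, 0 genes (0.2 CPM) or 2 genes (1 CPM) fell under it, in place of 1.

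Counts over all genes moved more. DESeq2 called 115 in place of 33 (IAA against mock), 25 for 7 (PEO-IAA against mock), 238 for 125 (IAA against PEO-IAA), 40 for 5 (HS::AXR3-1), 870 for 556 (XVE>>AXR3-1), 56 for 5 (difference of the lines), 960 for 306 (heated against estradiol-treated Col-0) and 409 for 199 (estradiol-treated Col-0 against mock). With the replicate block the first 6 were 133, 11, 341, 86, 1489 and 51. Own experiments or groups alone gave 11, 0 and 0 for IAA against mock, HS::AXR3-1 and the difference, and 550 for heated against estradiol-treated Col-0. HS::AXR3-1 gave 2 with no filter and 1 with the length offset, where the difference gave 8. Depth limits the lowest genes: IAA34 and IAA32 rest on at most 11 and 35 reads per library.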
